A study of Mus musculus with 18 samples.

Results

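The genes described here are 49 listed genes of DNA replication and mitosis, out of 55487 gene rows in a count table from mouse kidney tubular cells. They were chosen by name, with earlier results of these data known. Each symbol was matched to a single mouse Ensembl identifier, and all 49 passed the filter on low counts. Of them, 26 act at the entry into or during S phase. These are 12 genes of origin licensing and the replicative helicase, 4 of nucleotide supply, 7 of polymerases, clamp and ligation, and 3 regulators of the G1/S step. The other 23 act mainly in G2 and mitosis, though Ccna2 also serves S phase. They comprise 5 mitotic cyclin, CDK and transcription genes, 2 of the anaphase-promoting complex (APC/C), 4 of the mitotic kinases and their passenger complex, 4 of the spindle checkpoint, 6 of kinetochore and spindle, and 2 of chromosome structure and proliferation marking.

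The series title concerns nicotinamide N-methyltransferase, which methylates nicotinamide with S-adenosyl methionine, in tubular senescence and fibrosis. Polyadenylated RNA of im-TEC, a conditionally immortalized line of mouse tubular epithelial cells, was read near the transcripts' 3′ ends with QuantSeq libraries. Each of 6 groups had 3 libraries taken after 48 h. They were TGFβ (transforming growth factor β, 10 ng/mL), TGFβ+NAM, TGFβ+SAM, NAM (nicotinamide, 1 mM), SAM (S-adenosyl methionine, 0.5 mM) and control, with the same doses where agents were combined. All groups share the SV40 large T antigen, whose activity was lowered, per the labels, by a period at the restrictive temperature without interferon-γ before seeding. The line is 1 cell model, and nothing in the labels says that replicates were separate cultures, so p-values measure the spread between these libraries, which may be technical. SAM replicates 2 and 3 carry treatment tags (DIM. and LUN.) that conflict with their titles. The 6 libraries with SAM stand after a gap in the numbering of the count table's columns, and the labels do not say what the gap marks. SAM against control and TGFβ+SAM against TGFβ cross this gap. In them an effect of SAM and whatever the gap marks cannot be told apart.

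Before S phase, the MCM2–7 helicase is loaded at origins by CDC6 and CDT1, and firing adds CDC45 and the GINS complex. Genes for these proteins, for nucleotide synthesis and for the G1/S cyclins are induced by E2F factors when cyclin-CDK activity phosphorylates RB. Genes of mitosis peak later, through B-MYB and FOXM1 acting with the MuvB core at CHR elements, and they are silenced in resting cells by the DREAM complex. In epithelial cells TGFβ is best known for halting growth in G1. Large T antigen binds RB, on which that halt leans, and p53.

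Promoters are shown first because the 2 sets of genes differ in the letters they carry. Sequences were taken from RefSeq (GRCm38.p6), where 39 of the 49 genes had an entry. Windows ran from 250 bases before to 50 after the start, and both strands were searched. An E2F core (TTCCCGC or TTCGCGC or TTGCCGC or TTGGCGC) was present for 13 of 21 replication genes (61.9%) and 3 of 18 mitotic genes (16.7%), against 10.9% of all 27025 genes in the table. A CHR element (TTTGAA or TTTAAA) was present for 7 replication genes (33.3%), 15 mitotic genes (83.3%) and 30.6% of all genes. CCAAT was present for 12 replication genes (57.1%), 15 mitotic genes (83.3%) and 41.1% of all genes. These are matches of letters, not shown to be bound. Capitals below mark all 3 motifs on either strand, in the 150 bases before the start, and the 8 genes were picked after their matches and values were seen.

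The first 4 promoters belong to replication genes and hold E2F cores. Rrm1 lies at chr7:102441545-102441694 (plus strand), Rfc3 at chr5:151651209-151651358 (minus), Cdc6 at chr11:98908001-98908150 (plus) and Mcm6 at chr1:128359706-128359855 (minus). In Mcm6 each TTGGCGC overlaps the reverse complement of TTCGCGC.
Rrm1: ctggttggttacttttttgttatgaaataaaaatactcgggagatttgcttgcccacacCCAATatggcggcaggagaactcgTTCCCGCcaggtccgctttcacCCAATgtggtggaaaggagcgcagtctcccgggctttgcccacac
Rfc3: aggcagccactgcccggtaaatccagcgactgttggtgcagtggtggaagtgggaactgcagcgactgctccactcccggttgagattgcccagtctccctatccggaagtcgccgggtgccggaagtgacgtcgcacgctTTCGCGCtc
Cdc6: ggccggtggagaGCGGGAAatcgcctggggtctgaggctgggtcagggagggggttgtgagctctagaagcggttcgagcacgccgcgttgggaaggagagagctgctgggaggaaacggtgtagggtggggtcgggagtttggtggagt
Mcm6: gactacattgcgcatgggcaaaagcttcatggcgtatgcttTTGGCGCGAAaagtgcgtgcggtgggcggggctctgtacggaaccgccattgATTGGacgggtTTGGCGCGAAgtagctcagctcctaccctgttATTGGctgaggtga

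The other 4 promoters belong to mitotic genes and hold a CHR element with CCAAT nearby. Plk1 lies at chr7:122159285-122159434 (plus), Cdc20 at chr4:118437344-118437493 (minus), Ccnb1 at chr13:100786487-100786636 (minus) and Kif11 at chr19:37376232-37376381 (plus). In Ccnb1 the reverse complement of TTGGCGC overlaps a CCAAT.
Plk1: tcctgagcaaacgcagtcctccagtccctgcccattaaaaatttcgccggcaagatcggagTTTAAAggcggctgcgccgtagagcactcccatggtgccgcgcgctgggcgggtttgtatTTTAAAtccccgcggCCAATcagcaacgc
Cdc20: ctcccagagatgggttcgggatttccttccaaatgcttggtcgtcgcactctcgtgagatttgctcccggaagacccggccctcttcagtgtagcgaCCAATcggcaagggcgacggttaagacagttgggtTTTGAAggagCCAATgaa
Ccnb1: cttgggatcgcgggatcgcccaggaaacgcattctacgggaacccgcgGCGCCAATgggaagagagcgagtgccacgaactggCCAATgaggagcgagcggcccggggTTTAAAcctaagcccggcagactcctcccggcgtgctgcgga
Kif11: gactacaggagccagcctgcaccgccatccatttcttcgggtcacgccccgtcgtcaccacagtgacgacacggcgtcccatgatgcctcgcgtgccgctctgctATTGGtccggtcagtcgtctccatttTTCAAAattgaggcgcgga

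In each comparison with TGFβ a larger share of the replication list than of the mitotic list was called higher, a difference between the lists that was not tested. Differences were tested with edgeR's quasi-likelihood F test over 13469 genes, and a gene is called higher or lower at a Benjamini-Hochberg adjusted p under 0.05. In TGFβ against control, 15 of 26 replication genes were higher and 0 lower, and 4 of 23 mitotic genes were higher and 0 lower, where 9.7% of all tested genes were higher and 9.74% lower. In TGFβ+NAM against NAM, 16 replication genes were higher and 0 lower, and 3 mitotic genes were higher and 2 lower, with 10.9% of all genes higher and 11% lower. In TGFβ+SAM against SAM, 18 replication and 8 mitotic genes were higher and 0 lower, with 14.2% of all genes higher and 14.2% lower. The mitotic share in TGFβ+NAM against NAM, 3 of 23, stands near that background. Without control replicate 2, control replicate 3 or TGFβ replicate 2, the mitotic genes higher in TGFβ against control numbered 2. Without NAM replicate 1 or TGFβ+NAM replicate 2, the mitotic genes called in TGFβ+NAM against NAM numbered 3 in place of 5. These 3 comparisons share no library. In bulk RNA, fewer cells in a phase and less RNA per cell cannot be told apart. Summed tubule and fibroblast markers moved in the same comparisons, with values in the last paragraph, and their part was not tested.

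The median log2 fold change of the replication genes was 0.38, 0.40 and 0.42 in the comparisons without supplement, with NAM and with SAM. For the mitotic genes it was 0.17, -0.02 and 0.21, and over all tested genes it was 0.01, 0.00 and 0.00. Called higher in all 3 comparisons were 12 replication genes (46.2%) and 2 mitotic genes (8.7%), against 6.07% of all tested genes. A fold change above 0 in all 3 comparisons was found for 23 replication and 10 mitotic genes, and one below 0 in all 3 for 0 replication and 4 mitotic genes. Of all tested genes 50.8%, 50.1% and 50.1% were above 0 in the single comparisons. Their share with the same sign in all 3 was not calculated, so these counts have no background to be read against. Across the 49 genes the fold changes of 2 comparisons correlated at r = 0.79 (no supplement and NAM), 0.67 (no supplement and SAM) and 0.70 (NAM and SAM). That is a description across genes, which are not independent replicates, and the same r over all tested genes was not calculated. Without SAM replicates 2 and 3, when the SAM group is 1 library assumed to vary like the others, 8 replication and 6 mitotic genes were higher in TGFβ+SAM against SAM. The calls that ended there were those of Mcm6, Mcm7, Cdc6, Rrm2, Tyms, Pole, Fen1, Rfc3, Rfc4, E2f1, Cdk1 and Ube2c, at adjusted p = 0.0703 (Ube2c) to 0.461 (Cdc6), with log2 fold changes of 0.23 (Tyms) to 0.54 (Rfc4).

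**Figure D1:**
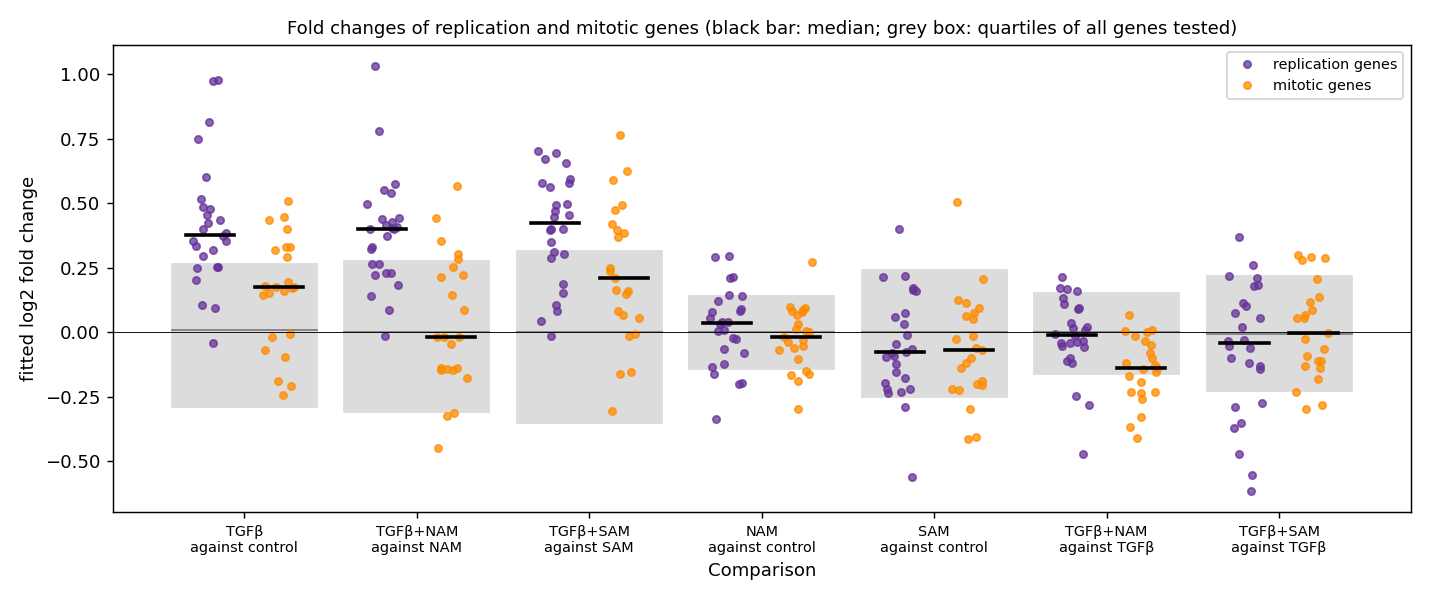
Fitted log2 fold change of each of the 49 genes (points) in 7 comparisons, replication genes beside mitotic genes, with the median of each set as a black bar and the quartiles of all tested genes as a grey box. In the 3 comparisons with TGFβ the replication medians are 0.38 to 0.42 and the mitotic medians -0.02 to 0.21.

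Origin licensing and the helicase held several of the highest fold changes. Of 12 genes, 7, 7 and 8 were called higher in TGFβ against control, TGFβ+NAM against NAM and TGFβ+SAM against SAM. Of all tested genes 9.7%, 10.9% and 14.2% were higher there. Values below are CPM (library-scaled counts with TMM factors), in the order of replicates 1 to 3. Signed values without a unit are fitted log2 fold changes (± SE), and where 3 stand together they are for TGFβ against control, TGFβ+NAM against NAM and TGFβ+SAM against SAM. Mcm3, a subunit of the MCM2–7 ring, had 208, 185 and 225 CPM in TGFβ and 152, 139.7 and 139 CPM in control libraries. With supplements it had 213, 206 and 181 CPM in TGFβ+NAM against 149, 146 and 148 CPM in NAM, and 206, 199 and 199 CPM in TGFβ+SAM against 143, 135 and 127 CPM in SAM. All 9 libraries with TGFβ lay above all 9 without it. The log2 fold change was 0.52 ± 0.09 (SE; adjusted p = 3.12e-05), 0.44 ± 0.09 (0.000276) and 0.58 ± 0.09 (3.11e-06).

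Mcm10, which joins the helicase to DNA polymerase α, is a gene of low counts that moved further. It had 31.5, 36.6 and 31.4 CPM in TGFβ and 22.4, 18.4 and 15.7 CPM in control libraries. Its values were 33.7, 34.9 and 38.0 CPM in TGFβ+NAM against 13.9, 19.8 and 18.3 CPM in NAM, and 37.7, 35.7 and 33.8 CPM in TGFβ+SAM against 21.3, 16.3 and 28.4 CPM in SAM. No library without TGFβ reached the lowest with it. Fitted log2 fold changes were 0.81 ± 0.19 (adjusted p = 0.00102), 1.03 ± 0.18 (3.22e-05) and 0.70 ± 0.18 (0.00278).

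The rest of this group was uneven. The ring subunits Mcm2, Mcm4 and Mcm7, the loader Cdc6 and the helicase cofactor Cdc45 were also higher in all 3 comparisons. Mcm2 gave 0.34, 0.26 and 0.47, and Mcm4 0.43, 0.40 and 0.45. Cdc6 had log2 fold changes of 0.98, 0.78 and 0.67, and Cdc45 of 0.75, 0.55 and 0.69. Mcm7, whose exons overlap other genes on both strands, gave 0.43, 0.58 and 0.29. Mcm6 passed in TGFβ+SAM against SAM alone (0.30, adjusted p = 0.0193). Mcm5, another subunit of the same ring, was not called, with -0.04 ± 0.13, 0.09 ± 0.13 and 0.11 ± 0.13. Cdt1, the partner of CDC6, and the GINS subunits Gins1 and Gins2 were not called in any of the 3 either, with Cdt1 at 0.25, 0.23 and 0.15, Gins1 at 0.60, 0.33 and 0.35 and Gins2 at 0.48, 0.14 and -0.01. Calls that ended when 1 library was left out were Mcm2 in TGFβ+NAM against NAM (adjusted p = 0.0561 without NAM replicate 1, 0.0776 without NAM replicate 3, 0.0657 without TGFβ+NAM replicate 1) and, in TGFβ+SAM against SAM, Cdc6 (0.0841 without SAM replicate 3) and Mcm6 (0.163 without SAM replicate 3, 0.0641 without TGFβ+SAM replicate 3). The Mcm7 call there ended without any 1 of 5 of its 6 libraries (adjusted p up to 0.262, without TGFβ+SAM replicate 1).

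**Figure D2:**
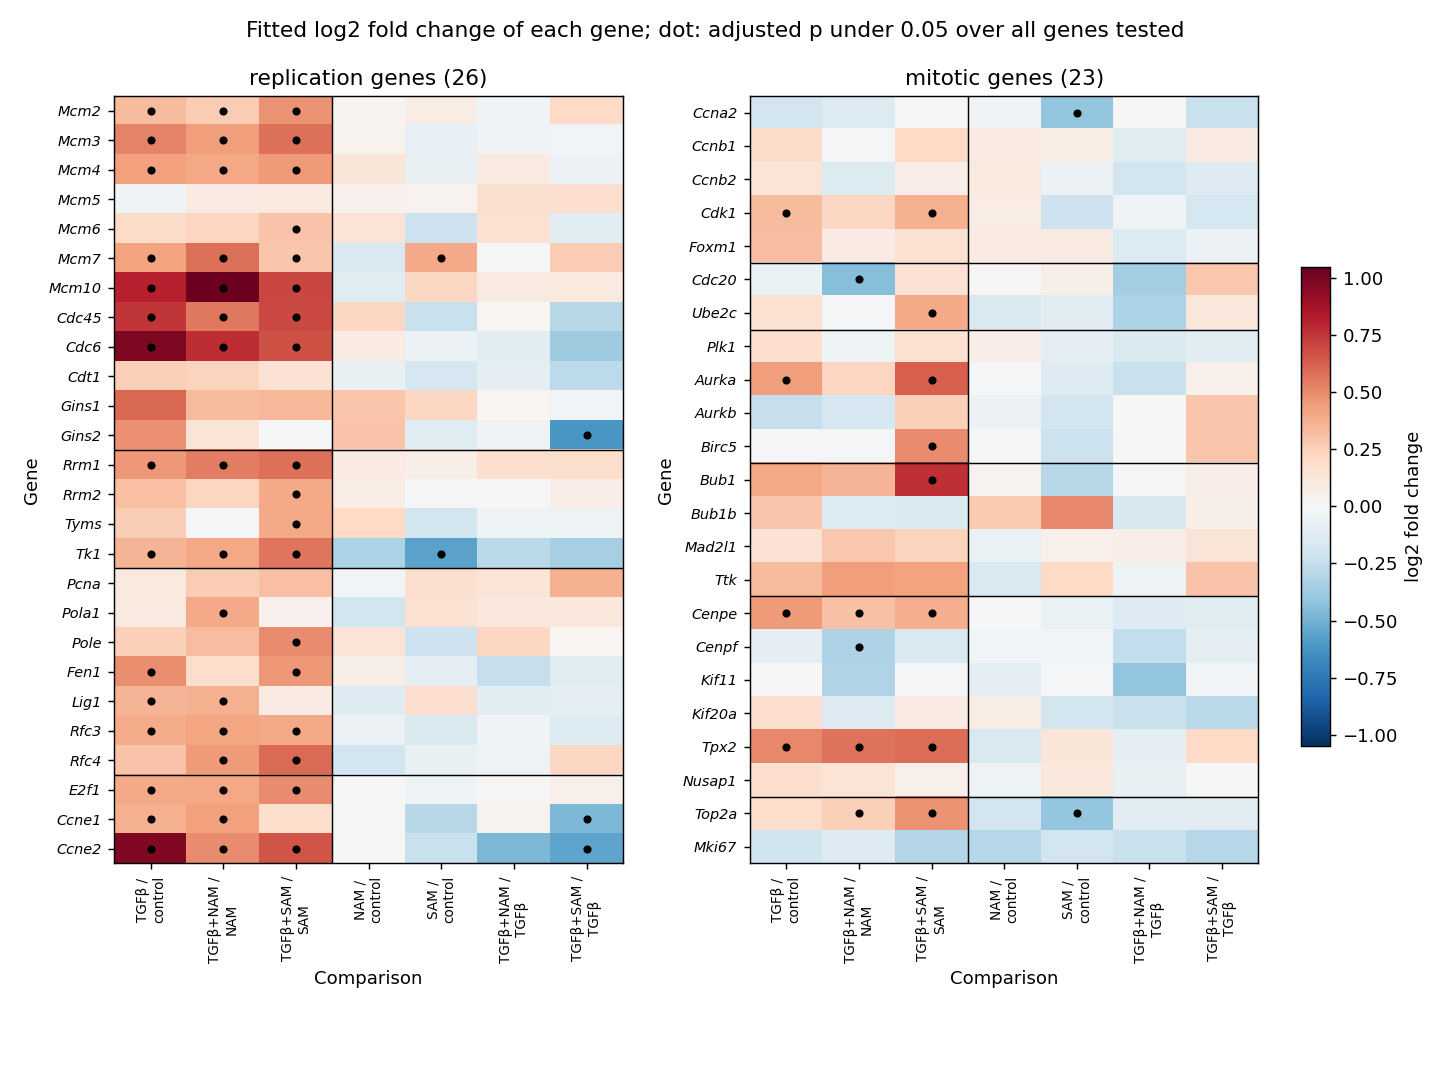
Fitted log2 fold change of each of the 49 genes (down, with lines between roles) in 7 comparisons (across), red for higher and blue for lower, with a dot where the adjusted p is under 0.05. The first 3 columns, with TGFβ, are red for most replication genes and mixed for the mitotic genes.

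Of the 4 nucleotide supply genes 2, 2 and 4 were higher in the 3 comparisons and 0 lower, where 9.7%, 10.9% and 14.2% of all tested genes were higher. Rrm1, the large subunit of ribonucleotide reductase, had 256, 241 and 242 CPM in TGFβ and 171, 180.2 and 189 CPM in control libraries. It had 261, 305 and 266 CPM in TGFβ+NAM against 181, 181 and 210.3 CPM in NAM, and 267, 284 and 289.9 CPM in TGFβ+SAM against 189, 204 and 171 CPM in SAM. The libraries with TGFβ again lay above all others. The log2 fold change was 0.45 ± 0.09 (adjusted p = 0.000187), 0.54 ± 0.09 (1.02e-05) and 0.58 ± 0.09 (2.3e-06). Its promoter is the first sequence above.

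Tk1, thymidine kinase of the salvage route, had 94.9, 109.5 and 93.4 CPM in TGFβ and 91.04, 70.8 and 71.3 CPM in control libraries. Its values were 73.9, 80.6 and 90.95 CPM in TGFβ+NAM against 62.7, 68.2 and 53.8 CPM in NAM, and 75.1, 72.8 and 85.7 CPM in TGFβ+SAM against 42.4, 56.9 and 59.1 CPM in SAM. Each pair of groups was separated. This gave log2 fold changes of 0.35 ± 0.13 (adjusted p = 0.0456), 0.41 ± 0.13 (0.018) and 0.56 ± 0.13 (0.000939). The first of these calls ended in 5 of 6 fits that left out a library, at adjusted p = 0.0546 (without TGFβ replicate 3) to 0.223 (without TGFβ replicate 2), and the second without NAM replicate 3 (0.11) or TGFβ+NAM replicate 3 (0.117). Tk1 shares exonic bases with Afmid on the opposite strand, and whether the counting used strand is not stated in the sources. The small reductase subunit Rrm2 and thymidylate synthase, Tyms, were called in TGFβ+SAM against SAM alone, at 0.40 and 0.40. Their other values were 0.32 and 0.23 for Rrm2 and 0.25 and -0.01 for Tyms, without supplement and with NAM. Rrm2 lost that call without TGFβ+SAM replicate 3 (adjusted p = 0.0911), and Tyms without SAM replicate 3 (0.088) or TGFβ+SAM replicate 2 (0.0563).

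Among polymerase, clamp and ligation genes 3, 4 and 4 of 7 were higher, against 9.7%, 10.9% and 14.2% of all tested genes. Rfc3, a subunit of the loader that sets the PCNA clamp on DNA, had 125, 128 and 133 CPM in TGFβ and 102, 96.4 and 96.3 CPM in control libraries. It had 138, 126 and 113 CPM in TGFβ+NAM against 101, 87.9 and 93.7 CPM in NAM, and 115, 104 and 129.9 CPM in TGFβ+SAM against 89.8, 90.96 and 84.3 CPM in SAM. No library without TGFβ overlapped those with it. The log2 fold change was 0.39 ± 0.10 (adjusted p = 0.00469), 0.41 ± 0.10 (0.00197) and 0.40 ± 0.10 (0.0025). Fen1, the flap nuclease of the lagging strand, had 124, 99.9 and 134 CPM in TGFβ and 91.3, 79.2 and 83.9 CPM in control libraries, 119, 91.5 and 90.4 CPM in TGFβ+NAM against 86.3, 77.6 and 101 CPM in NAM, and 102, 103 and 121 CPM in TGFβ+SAM against 87.2, 77.4 and 73.3 CPM in SAM. With NAM the groups overlapped. Fen1 was called without supplement (0.49 ± 0.12, adjusted p = 0.00288) and with SAM (0.45 ± 0.12, 0.00415) and not with NAM (0.18 ± 0.12, 0.321), and its exons overlap Tmem258 on the other strand.

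Pcna, the sliding clamp and a common marker of S phase, was not called. It had 49.4, 39.4 and 44.2 CPM in TGFβ and 37.9, 43.9 and 41.7 CPM in control libraries, which overlapped. It had 53.9, 44.9 and 47.2 CPM in TGFβ+NAM against 36.0, 39.4 and 45.9 CPM in NAM, and 66.4, 57.4 and 48.3 CPM in TGFβ+SAM against 46.2, 48.8 and 43.4 CPM in SAM. Its log2 fold change was 0.11 ± 0.14 (adjusted p = 0.69), 0.27 ± 0.14 (0.192) and 0.31 ± 0.14 (0.0916). DNA ligase I, Lig1, was higher without supplement and with NAM, at 0.36 and 0.37. Rfc4, another loader subunit, was higher with NAM and with SAM, at 0.44 and 0.60. The catalytic subunit of polymerase α, Pola1, was higher with NAM (0.40), and that of polymerase ε, Pole, with SAM (0.49). Several of these calls did not hold when 1 library was left out. In TGFβ+NAM against NAM, Lig1 ended without NAM replicate 3 (adjusted p = 0.0699), Pola1 without NAM replicate 3 (0.167) or TGFβ+NAM replicate 2 (0.177), and Rfc4 in 4 of 6 fits (up to 0.217, without NAM replicate 1). Pole ended without SAM replicate 3 (0.0916) or TGFβ+SAM replicate 3 (0.0968).

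The 3 regulators of G1/S were called higher in 3, 3 and 2 cases, against 9.7%, 10.9% and 14.2% of all tested genes. Ccne2, cyclin E2, which activates CDK2 at the start of S phase, had 81.4, 103 and 122 CPM in TGFβ and 48.2, 60.1 and 46.6 CPM in control libraries. It had 52.7, 88.9 and 78.2 CPM in TGFβ+NAM against 51.9, 56.7 and 47.3 CPM in NAM, and 72.8, 66.7 and 68.3 CPM in TGFβ+SAM against 41.6, 44.9 and 45.3 CPM in SAM. TGFβ+NAM replicate 1 lay among the NAM libraries, and the other pairs of groups were separated. The log2 fold change was 0.98 ± 0.15 (adjusted p = 1.78e-06), 0.50 ± 0.15 (0.0107) and 0.66 ± 0.15 (0.000682). The call with NAM ended without NAM replicate 3 (0.0526), TGFβ+NAM replicate 2 (0.155) or TGFβ+NAM replicate 3 (0.0509). Ccne2 overlaps Ints8 on the other strand.

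E2f1, an activator of the S-phase genes and itself an E2F target, had 57.8, 64.9 and 63.9 CPM in TGFβ and 43.5, 43.5 and 54.6 CPM in control libraries. It had 62.1, 60.4 and 65.3 CPM in TGFβ+NAM against 50.05, 51.0 and 40.6 CPM in NAM, and 59.9, 65.9 and 68.0 CPM in TGFβ+SAM against 47.7, 42.04 and 47.4 CPM in SAM. The groups did not overlap in any pair. Log2 fold changes were 0.40 ± 0.13 (adjusted p = 0.0216), 0.41 ± 0.13 (0.0164) and 0.50 ± 0.13 (0.00237). The first call ended without control replicate 1 (0.108), control replicate 2 (0.116), TGFβ replicate 2 (0.087) or TGFβ replicate 3 (0.0644). The second ended without NAM replicate 3 (0.12) or TGFβ+NAM replicate 3 (0.0637). Ccne1, cyclin E1, gave 0.37, 0.43 and, uncalled, 0.19. Its first call ended in 5 of 6 fits that left out a library (adjusted p up to 0.182, without control replicate 3) and its second in 4 of 6 (up to 0.0773, without NAM replicate 2).

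None of the mitotic cyclins was called with TGFβ. Ccna2, cyclin A2, which serves S phase and mitosis, had 90.3, 76.4 and 73.7 CPM in TGFβ and 93.4, 91.4 and 89.7 CPM in control libraries. It had 97.2, 76.4 and 68.7 CPM in TGFβ+NAM against 77.9, 89.0 and 100.3 CPM in NAM, and 70.9, 64.8 and 69.7 CPM in TGFβ+SAM against 71.2, 67.4 and 67.6 CPM in SAM. Each pair overlapped. Neither this gene nor the B cyclins Ccnb1 and Ccnb2 were called in any of the 3 comparisons, with Ccna2 at -0.19 ± 0.12, -0.14 ± 0.12 and -0.01 ± 0.12, Ccnb1 at 0.20, -0.02 and 0.21 and Ccnb2 at 0.15, -0.14 and 0.07. Ccna2 overlaps Exosc9 on the other strand. Foxm1, the activator of the G2/M genes, had 55.3, 48.4 and 50.9 CPM in TGFβ and 42.6, 47.5 and 33.4 CPM in control libraries, 46.5, 45.4 and 48.4 CPM in TGFβ+NAM against 48.2, 47.2 and 36.7 CPM in NAM, and 40.9, 50.2 and 56.5 CPM in TGFβ+SAM against 45.4, 37.7 and 49.1 CPM in SAM. The groups were apart without supplement and overlapped with one. It was not called, with 0.32 ± 0.15, 0.09 ± 0.15 and 0.16 ± 0.15.

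Cdk1, the kinase that drives entry into mitosis, was the member of this group that was called. It had 198, 217 and 194 CPM in TGFβ and 176, 158 and 149.995 CPM in control libraries. It had 221, 181 and 193 CPM in TGFβ+NAM against 153, 149.8 and 209 CPM in NAM, and 145, 183 and 208 CPM in TGFβ+SAM against 152, 142 and 121 CPM in SAM. The groups with a supplement overlapped. Log2 fold changes came to 0.33 ± 0.12 (adjusted p = 0.0418), 0.22 ± 0.12 (0.203) and 0.37 ± 0.12 (0.0158). The call against control ended in 5 of 6 fits that left out a library, at 0.0531 (without TGFβ replicate 3) to 0.183 (without control replicate 3). The call with SAM ended without SAM replicate 3 (0.122) or TGFβ+SAM replicate 3 (0.158).

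Each of the 2 APC/C genes was called in 1 comparison. Cdc20, the activator that opens anaphase, had 90.5, 91.6 and 70.0 CPM in TGFβ and 79.2, 94.4 and 92.2 CPM in control libraries. It had 61.7, 64.1 and 70.7 CPM in TGFβ+NAM, all below the 94.0, 81.6 and 92.6 CPM in NAM, and 93.2, 113 and 101 CPM in TGFβ+SAM against 91.1, 96.6 and 89.7 CPM in SAM. The pairs without supplement and with SAM overlapped. It was lower in TGFβ+NAM against NAM (-0.45 ± 0.12, adjusted p = 0.00313) and not called without supplement (-0.07 ± 0.11, 0.759) or with SAM (0.15 ± 0.11, 0.354). Ube2c, the E2 enzyme of the complex, had 139, 122 and 109.8 CPM in TGFβ and 106, 117 and 109 CPM in control libraries, 104, 89.3 and 103 CPM in TGFβ+NAM against 101, 106 and 91.9 CPM in NAM, and 136, 136 and 132 CPM in TGFβ+SAM against 102, 110.2 and 93.6 CPM in SAM. It was separated and called in the pair with SAM and in neither other (0.40 ± 0.10, adjusted p = 0.00271). Whether these effects differ with and without a supplement was tested as an interaction, and neither gene passed. The exons of both overlap a gene on the other strand.

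Among the kinases, Aurka, which matures the spindle poles, had 43.0, 47.9 and 43.2 CPM in TGFβ and 36.6, 30.0 and 32.6 CPM in control libraries. It had 41.0, 36.4 and 37.1 CPM in TGFβ+NAM against 34.2, 30.6 and 33.2 CPM in NAM, and 41.8, 51.9 and 45.8 CPM in TGFβ+SAM against 29.8, 31.9 and 28.6 CPM in SAM. All pairs were separated, and the gene was called without supplement (0.44 ± 0.14, adjusted p = 0.0236) and with SAM (0.63 ± 0.14, 0.000601) but not with NAM (0.22 ± 0.14, 0.289). The call without supplement ended without control replicate 2 (0.127), control replicate 3 (0.0782) or TGFβ replicate 2 (0.111). Birc5, survivin, the passenger subunit that brings Aurora B to chromosomes, had 174, 162 and 156 CPM in TGFβ and 173, 162 and 165 CPM in control libraries. It had 191, 154 and 148 CPM in TGFβ+NAM against 156, 168 and 176 CPM in NAM, and 189, 211 and 202 CPM in TGFβ+SAM against 143, 158 and 128 CPM in SAM. Only the last pair was separated. Birc5 was called with SAM (0.49 ± 0.10, adjusted p = 0.00012), against -0.02 ± 0.10 (0.934) without supplement and -0.02 ± 0.10 (0.927) with NAM. Plk1, polo-like kinase, and Aurkb, Aurora B itself, were not called, Plk1 at 0.17, -0.05 and 0.16 and Aurkb at -0.24, -0.18 and 0.25.

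The spindle checkpoint, which holds anaphase until chromosomes are attached, had 0, 0 and 1 of 4 genes higher. With 4 genes these counts cannot be told from the shares of all tested genes, 9.7%, 10.9% and 14.2%, and show nothing of the group as a whole. Bub1, a checkpoint kinase, had 29.8, 21.4 and 23.3 CPM in TGFβ and 18.9, 18.2 and 19.4 CPM in control libraries, 24.8, 28.8 and 20.1 CPM in TGFβ+NAM against 17.8, 21.7 and 18.1 CPM in NAM, and 28.7, 20.6 and 28.9 CPM in TGFβ+SAM against 14.9, 18.4 and 12.6 CPM in SAM. It was separated in 2 pairs, without supplement and with SAM, and called in the last (0.76 ± 0.20, adjusted p = 0.00298), with 0.40 ± 0.20 and 0.35 ± 0.20 in the others. Bub1b, which encodes BUBR1, had 28.1, 33.5 and 28.7 CPM in TGFβ and 24.0, 22.2 and 27.9 CPM in control libraries, 29.4, 24.4 and 26.7 CPM in TGFβ+NAM against 25.5, 25.8 and 37.8 CPM in NAM, and 31.5, 32.1 and 30.6 CPM in TGFβ+SAM against 43.6, 30.3 and 30.9 CPM in SAM. The groups were apart without supplement and overlapped with one. It was not called in these comparisons, with 0.29 ± 0.18, -0.15 ± 0.17 and -0.15 ± 0.17. The checkpoint protein Mad2l1 and the kinase Ttk (MPS1) were not called either, Mad2l1 at 0.15, 0.29 and 0.24 and Ttk at 0.33, 0.44 and 0.42.

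The 2 mitotic genes higher in all 3 comparisons belong to kinetochore and spindle. Tpx2, which activates Aurora A on spindle microtubules, had 173, 179 and 195 CPM in TGFβ and 144, 112 and 129.6 CPM in control libraries. It had 159, 168 and 184 CPM in TGFβ+NAM against 118, 127 and 99.0 CPM in NAM, and 220.2, 214 and 198 CPM in TGFβ+SAM against 141, 151 and 127 CPM in SAM. All 9 libraries with TGFβ exceeded the 9 without. Its log2 fold changes were 0.51 ± 0.10 (adjusted p = 0.000241), 0.57 ± 0.10 (4.01e-05) and 0.59 ± 0.10 (1.44e-05). Cenpe, the kinetochore motor that aligns chromosomes, had 394, 419 and 465 CPM in TGFβ and 326, 307 and 304 CPM in control libraries. It had 358, 404 and 398 CPM in TGFβ+NAM against 334, 349 and 256 CPM in NAM, and 392, 383 and 392 CPM in TGFβ+SAM against 288, 304 and 302 CPM in SAM. The groups of each pair were apart, with NAM replicate 3 the lowest library of all. Its log2 fold changes were 0.45 ± 0.09 (adjusted p = 0.00026), 0.30 ± 0.09 (0.0121) and 0.38 ± 0.09 (0.00115). The call with NAM ended without NAM replicate 3 (0.166) or TGFβ+NAM replicate 2 (0.0555).

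The other spindle genes were lower or not called. Cenpf, another kinetochore protein, had 156, 206 and 196 CPM in TGFβ+NAM and 246, 239 and 214 CPM in NAM libraries and was lower (-0.32 ± 0.10, adjusted p = 0.0174), with -0.10 without supplement and -0.16 with SAM. That call ended without NAM replicate 1 (0.0963), NAM replicate 2 (0.0644) or TGFβ+NAM replicate 1 (0.16). The motors Kif11 and Kif20a and the microtubule bundler Nusap1 were not called, with Kif11 at -0.01, -0.31 and -0.01, Kif20a at 0.17, -0.14 and 0.08 and Nusap1 at 0.17, 0.14 and 0.06.

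Mki67, the source of the Ki-67 proliferation antigen, was not called. It had 111, 97.9 and 111 CPM in TGFβ and 121, 142 and 106 CPM in control libraries. It had 84.9, 103 and 84.5 CPM in TGFβ+NAM against 93.6, 116 and 90.7 CPM in NAM, and 88.1, 71.3 and 100.4 CPM in TGFβ+SAM against 117, 95.2 and 109 CPM in SAM. Every pair of groups overlapped, with mean levels below the counterpart in each, and the log2 fold change was -0.21 ± 0.12 (adjusted p = 0.268), -0.14 ± 0.12 (0.486) and -0.30 ± 0.12 (0.0627). Top2a, the topoisomerase that untangles chromosomes and the other marker in wide use, had 399, 430.3 and 373 CPM in TGFβ and 363, 344 and 355 CPM in control libraries. It had 329, 415 and 366 CPM in TGFβ+NAM against 324, 343 and 264 CPM in NAM, and 386, 388 and 339 CPM in TGFβ+SAM against 277, 267 and 258 CPM in SAM. It was called with NAM (0.25 ± 0.09, adjusted p = 0.0452) and with SAM (0.47 ± 0.09, 0.000106), and not without supplement (0.18 ± 0.09, 0.187). In the NAM pair the groups overlapped, and that call ended in 4 of 6 fits that left out a library (adjusted p up to 0.306, without NAM replicate 3).

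**Figure D3:**
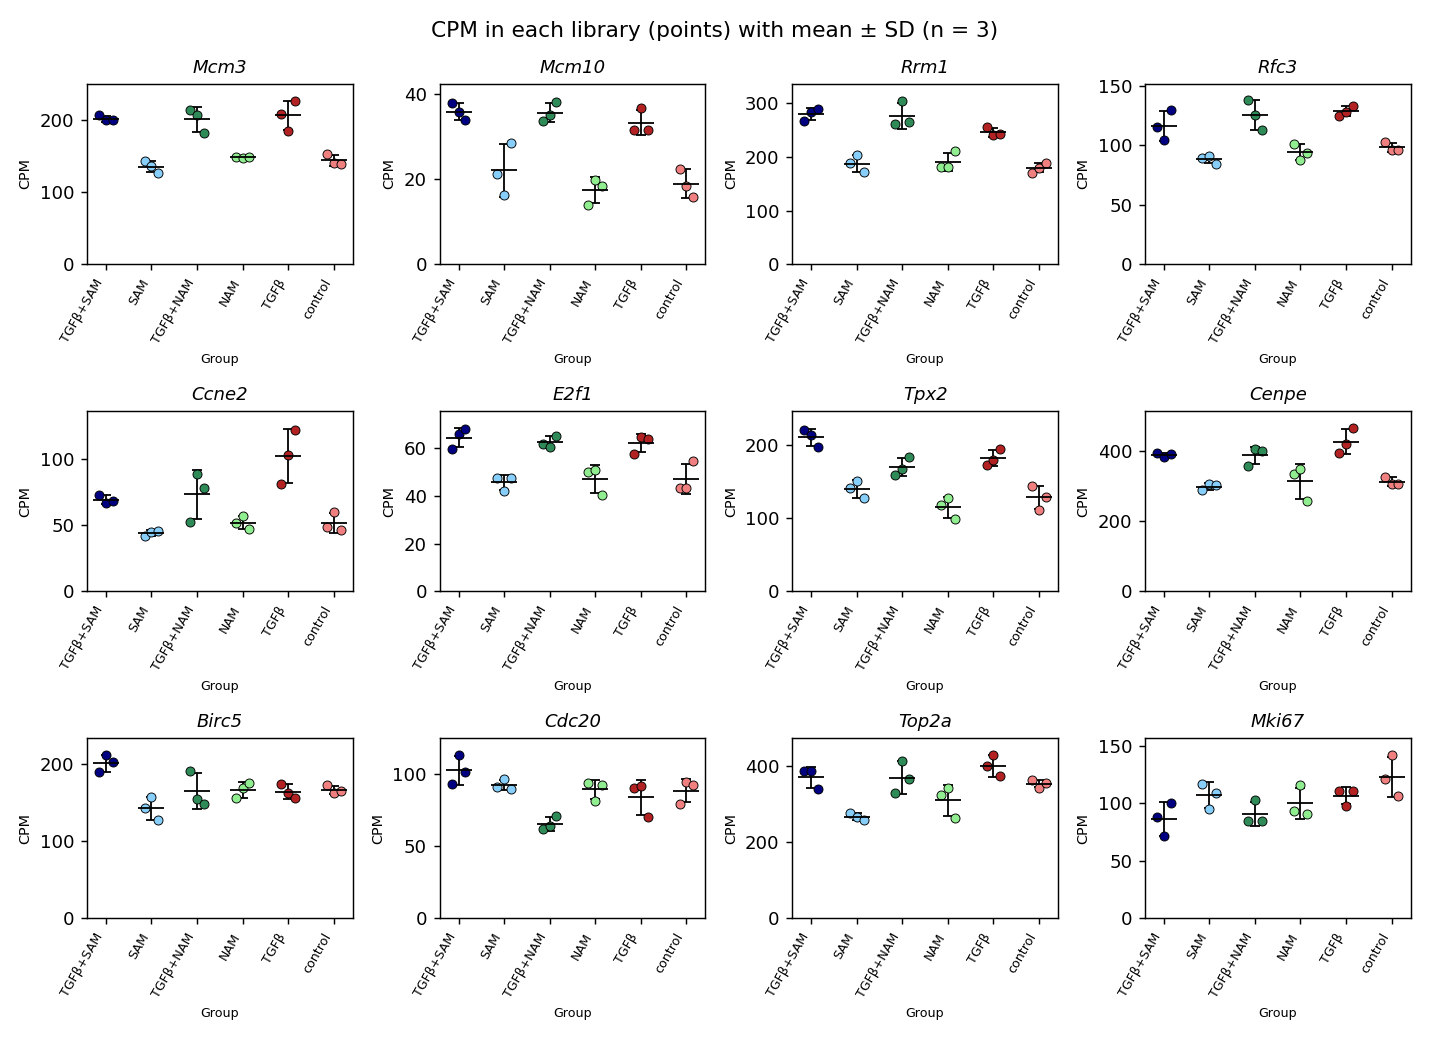
CPM of 12 genes in each library, by group, with a point for each of the 3 replicates and bars for mean ± SD; each panel has its own axis from 0. For the 6 replication genes the groups with TGFβ stand above their counterparts except for 1 TGFβ+NAM library of Ccne2, whereas for Cdc20 and Mki67 no group with TGFβ lies wholly above its counterpart.

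Averaged over the members, both sets of genes can be set side by side in each library. The mean log2 CPM of the 26 replication genes was 6.52, 6.51 and 6.52 in TGFβ and 6.10, 6.09 and 6.12 in control libraries, 6.52, 6.47 and 6.50 in TGFβ+NAM against 6.07, 6.15 and 6.13 in NAM, and 6.45, 6.46 and 6.44 in TGFβ+SAM against 6.09, 6.05 and 6.01 in SAM. The difference was 0.42, 0.38 and 0.40, and all 9 libraries with TGFβ (6.44 to 6.52) lay above the 9 without (6.01 to 6.15). The same mean of the 23 mitotic genes was 6.36, 6.31 and 6.27 in TGFβ and 6.22, 6.14 and 6.11 in control libraries, 6.23, 6.17 and 6.11 in TGFβ+NAM against 6.09, 6.15 and 6.16 in NAM, and 6.29, 6.31 and 6.36 in TGFβ+SAM against 6.11, 6.17 and 5.99 in SAM. Here the difference was 0.15, 0.03 and 0.23, and the NAM pair overlapped. With scaling by library totals the mitotic difference in that pair became -0.02. With the median over members in place of the mean, the replication difference was 0.30, 0.30 and 0.29 and the mitotic difference 0.15, -0.08 and 0.08.

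The mitotic mean minus the replication mean is a contrast within each library, in which library scaling nearly cancels. Only its shift between groups has a meaning, because the genes differ in how well they are counted. It was -0.40 to -0.08 in the 9 libraries with TGFβ and -0.02 to 0.12 in the 9 without. The shift was -0.26 in TGFβ against control, -0.35 in TGFβ+NAM against NAM and -0.17 in TGFβ+SAM against SAM. With medians over members it was -0.15, -0.38 and -0.20. With 3 libraries against 3 an exact permutation test cannot give a two-sided p below 0.1, and no p is given for these means. All 49 genes together took 0.593% to 0.637% of gene reads in libraries with TGFβ and 0.486% to 0.535% in those without.

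**Figure D4:**
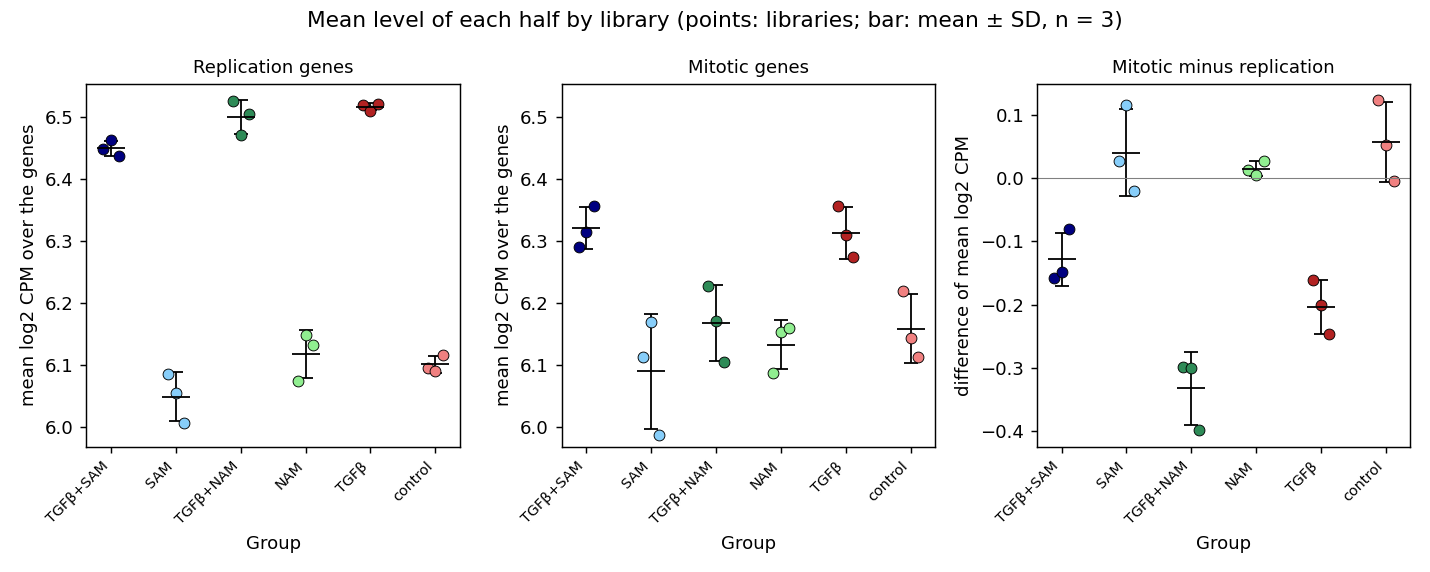
Mean log2 CPM of the replication genes and of the mitotic genes, and the mitotic minus the replication mean, in each of the 18 libraries by group; points are libraries, bars are mean ± SD, and axes do not start at 0. The contrast is -0.08 or lower in every library with TGFβ and -0.02 or higher in every library without it.

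Levels of the replication genes varied together over the 18 libraries and hardly within groups, and those of the mitotic genes varied together less. Over the 18 libraries the median correlation of log2 CPM was r = 0.52 between 2 replication genes (325 pairs), 0.18 between 2 mitotic genes (253 pairs) and 0.27 between 1 of each (598 pairs). Of these pairs 94.8%, 66.0% and 72.2% had r above 0. After the group means were subtracted the median correlations were -0.03, 0.08 and 0.04. The genes share libraries and depth, no such medians were calculated for all tested genes, and the values are descriptive.

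Few members were called in SAM against control, which crosses the gap in column numbering and shares its control libraries with TGFβ against control. Of the replication genes 1 was higher and 1 lower, and of the mitotic genes 0 were higher and 2 lower, where 5.02% of all tested genes were higher and 6.79% lower. The replication calls numbered 1 without control replicate 1, control replicate 2 or SAM replicate 3, and the mitotic calls 1 without control replicate 1 or 2. Tk1 was lower in SAM, at 42.4, 56.9 and 59.1 CPM, than in control, at 91.04, 70.8 and 71.3 CPM, a log2 fold change of -0.56 ± 0.13 (adjusted p = 0.00289; 0.0572 without control replicate 1). Mcm7 was higher, at 575, 574 and 602 CPM in SAM against 453, 424 and 450.5 CPM in control libraries (0.40 ± 0.11, 0.0111; 0.0654 without control replicate 2, 0.0531 without SAM replicate 3). The groups were apart for both genes. Top2a was lower (-0.40 ± 0.09, adjusted p = 0.00253), and so was Ccna2 (-0.41 ± 0.12, 0.0173). The Ccna2 call ended in 4 of 6 fits that left out a library, the highest adjusted p being 0.0623 without control replicate 1. Bub1b, at 43.6, 30.3 and 30.9 CPM in SAM and 24.0, 22.2 and 27.9 CPM in control libraries, missed the threshold (0.51 ± 0.17, 0.0507). Without SAM replicates 2 and 3 the Mcm7, Top2a and Ccna2 calls ended (adjusted p = 0.215, 0.182 and 0.305), and Bub1b was called, at 0.82 (adjusted p = 0.0332).

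With TGFβ in both groups, the E cyclins were lower in the libraries with SAM. Of all tested genes 3.07% were higher and 4.25% lower in TGFβ+SAM against TGFβ, and of the replication genes 0 were higher and 3 lower. Ccne2 had 72.8, 66.7 and 68.3 CPM in TGFβ+SAM and 81.4, 103 and 122 CPM in TGFβ libraries, with no overlap (-0.55 ± 0.14, adjusted p = 0.0117). Ccne1 had 43.1, 38.7 and 43.9 CPM in TGFβ+SAM and 55.9, 58.4 and 60.2 CPM in TGFβ libraries, again apart (-0.47 ± 0.13, 0.0201). Gins2 had 26.8, 37.4 and 34.6 CPM in TGFβ+SAM and 67.2, 47.9 and 35.1 CPM in TGFβ libraries, which overlapped (-0.62 ± 0.19, 0.0439). Single libraries bore on all 3 calls: 1 was left without TGFβ replicate 2 or 3 and 0 without TGFβ+SAM replicate 2. The Ccne2 call ended without TGFβ replicate 3 (adjusted p = 0.132) or TGFβ+SAM replicate 2 (0.0573). The Ccne1 call ended without TGFβ replicate 2 (0.0557), TGFβ replicate 3 (0.0674) or TGFβ+SAM replicate 2 (0.104), and the Gins2 call in 5 of 6 such fits (up to 0.414, without TGFβ replicate 1, where the fold change was -0.35). Gins2 also ended in DESeq2 (0.0533), with library totals (0.0606), with the replicate number as a block (0.0594) and without SAM replicates 2 and 3 (0.0522). No mitotic gene passed in edgeR, 4 had an unadjusted p under 0.05, and DESeq2 called 1, Birc5. Without TGFβ+SAM replicate 3, 1 mitotic gene was lower in edgeR. This comparison shares the TGFβ libraries with TGFβ against control, so the E cyclins' values in the 2 are not independent. It also crosses the gap in column numbering.

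For NAM no member was called. In NAM against control 0 of 49 were called by edgeR and 0 by DESeq2, 3 had an unadjusted p under 0.05, and 0.00742% of all tested genes were called in either direction. In TGFβ+NAM against TGFβ 0 of 49 were called by either tool, 6 had an unadjusted p under 0.05, and 0.0817% of all genes were called. Of the 23 mitotic genes 19 had a log2 fold change below 0 in TGFβ+NAM against TGFβ, with a median of -0.14, where 50.1% of all tested genes were above 0. The mitotic mean in TGFβ+NAM, at 6.23, 6.17 and 6.11, lay below that in TGFβ, at 6.36, 6.31 and 6.27. The difference was -0.15, and -0.26 with the median over members. Kif11 had -0.41 ± 0.14 (adjusted p = 0.446) and Cdc20 -0.37 ± 0.12 (0.388). Shifts of a mean without overlap, though smaller and in the other set of genes, were also found with SAM. The replication mean was lower in TGFβ+SAM than in TGFβ libraries (-0.07) and in SAM than in control libraries (-0.05). With the median over members these shifts were -0.20 and -0.19.

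Whether a supplement altered the effect of TGFβ was tested as an interaction, the effect with it minus the effect without. For NAM 0 members passed in edgeR or DESeq2, 2 had an unadjusted p under 0.05, and 0% of all genes were called. For SAM 0 replication genes passed in edgeR or DESeq2, with 0 at an unadjusted p under 0.05, 1 mitotic gene passed, and 1.43% of all genes were called. That is 1 of 49 members, a share near that of all genes. It was Birc5, with an interaction of 0.51 ± 0.14 (adjusted p = 0.0496) from the values given above. The call ended in 11 of 12 fits that left out 1 library (adjusted p up to 0.191, without SAM replicate 3). For Cdc20 the interaction was -0.38 ± 0.16 with NAM and 0.22 ± 0.16 with SAM, and for Ccne2 -0.48 ± 0.21 and -0.32 ± 0.21, all uncalled.

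Further genes of the same pathways were counted from separate lists, also chosen with earlier results of these data known. Of 46 other replication genes, 12 were higher and 0 lower in TGFβ against control, 15 and 0 in TGFβ+NAM against NAM, and 24 and 1 in TGFβ+SAM against SAM, with medians of 0.23, 0.25 and 0.35. In these comparisons 9.7%, 10.9% and 14.2% of all tested genes were higher and 9.74%, 11% and 14.2% lower. Hells, a chromatin remodeller of S phase, had 291, 322 and 291 CPM in TGFβ and 223, 197 and 209.8 CPM in control libraries (0.52 ± 0.09, adjusted p = 1.91e-05). Orc6, a subunit of the origin recognition complex, gave 0.59, 0.44 and 0.71, and the E2F cofactor Atad2 0.39, 0.52 and 0.36, all called. The 1 lower gene was Rfc1, the large clamp loader subunit (-0.27), chosen after its values were seen. In SAM against control 0 were higher and 4 lower, Orc6 among them at -0.41. Of all tested genes 5.02% were higher and 6.79% lower there, so 4 of 46 stands near the background.

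Of 61 other mitosis genes, 6 were higher and 0 lower, 10 and 1, and 19 and 1, with medians of 0.13, 0.11 and 0.21. Cit, citron kinase of cytokinesis, had 178, 176 and 156 CPM in TGFβ and 109, 102 and 110.0 CPM in control libraries (0.67 ± 0.10, adjusted p = 9.15e-07). It was also called with NAM (0.62) and SAM (0.64). Cenph, of the inner kinetochore, was called in all 3, at 0.63, 0.62 and 0.86. Gtse1, a G2 and spindle protein that p53 also induces, was higher in SAM, at 223, 254 and 231 CPM, than in control, at 144, 147 and 144 CPM (0.70 ± 0.10, adjusted p = 1.47e-06). The background shares for these counts are those given above. In TGFβ against control, 6 of 61 higher stands near the 9.7% of all tested genes.

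Among 21 E2F, RB and DREAM regulators, 2 were higher and 2 lower, 3 and 1, and 3 and 2 in the same order. These counts are near the shares of all genes, 9.7% and 9.74%, 10.9% and 11%, and 14.2% and 14.2%, and show nothing of the list as a whole. The activator E2f2 was lower in all 3 comparisons, at -0.83, -0.70 and -1.87, with 10.3, 15.2 and 10.6 CPM in TGFβ and 19.4, 23.4 and 22.0 CPM in control libraries. The atypical repressor E2f7, itself induced in S phase, was higher in all 3, at 0.66, 0.74 and 0.51. Mybl1, A-MYB, was higher in SAM against control (0.80 ± 0.16, adjusted p = 0.000357).

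Cyclins D1 and D2, which act upstream of RB, were lower with TGFβ, and CDK inhibitors were called in both directions. Of 13 tested cyclin D, CDK and CDK inhibitor genes, 3 were higher and 4 lower, 3 and 5, and 3 and 5, against the same shares of all genes. Ccnd1, cyclin D1, the partner of CDK4 and CDK6, had 144, 135 and 139.6 CPM in TGFβ and 699.9, 647 and 649 CPM in control libraries. Its log2 fold change was -2.25 ± 0.10 (adjusted p = 5.34e-21), -2.79 ± 0.10 (7.77e-24) and -2.33 ± 0.10 (6.68e-22). Ccnd2, cyclin D2, was lower as well, at -0.93, -0.88 and -1.23. The 3 higher genes were CDK inhibitors, and so were the other lower ones; these 6 are named after their values were seen. Cdkn1a (p21) gave 0.45, 0.60 and 0.31, Cdkn2b (p15) 0.55, 0.56 and 0.64, and Cdkn2a, whose transcripts encode p16 and p19ARF, 0.49, 0.59 and 0.43. Lower were Cdkn2c (p18), at -0.57, -0.81 and -0.95, and Cdkn2d (p19INK4D), at -0.52, -0.63 and -0.53. Cdkn1b (p27) was lower with NAM (-0.49) and SAM (-0.66) and uncalled without supplement (-0.20). Cdk6 was lower in SAM against control (-0.71 ± 0.08, adjusted p = 3.1e-08).

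The motif matches can be read against the calls. Of members called higher in all 3 comparisons with TGFβ, 11 had a promoter window, 5 of them (45.5%) with an E2F core and 4 (36.4%) with a CHR element. Of members called in 1 or 2 comparisons, 14 had a window, 7 with an E2F core and 8 (57.1%) with a CHR. Of members called higher in none, 14 had a window, 4 (28.6%) with an E2F core and 10 (71.4%) with a CHR. Tpx2 and Ccne2 were among the 10 genes without an entry. These classes hold different shares of replication genes. Among replication genes with a window, an E2F core was present for 5 of 10 called in all 3 comparisons, 6 of 8 called in 1 or 2 and 2 of 3 called in none, so within them the core was not more frequent with more calls. Mki67 and Mcm5, both uncalled, hold E2F cores.

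Gene reads per library ranged over 4171170 to 7717626 and detected genes over 15236 to 16379. Tubule markers Pax8 and Lrp2 had reads in every group, while Epcam was at 0 in all 18 libraries, Slc34a1 at 0 in 5 of the 6 groups and Cdh1 at no more than 7 reads per group. The summed level of the 13 tubule markers was 932 to 1049 CPM in TGFβ, 917 to 978 in TGFβ+NAM and 928 to 1035 in TGFβ+SAM, against 3016 to 3119 CPM in control, 3115 to 3437 in NAM and 3632 to 3787 in SAM. The sum followed Aqp1 (-3.28, -3.77 and -4.46) and Atp1b1 (-2.98, -3.16 and -3.36), and not every marker fell. Of 9 tested, 6, 5 and 5 were lower and 1 was higher, Krt8, a keratin (0.93, 0.95 and 1.74). The summed level of 5 fibroblast markers, nearly all Col1a1 with Lum at 0, was 109 to 114 CPM in TGFβ, against 3.29 to 7.09 CPM in control libraries, 76.4 to 102 CPM in TGFβ+NAM against 5.37 to 7.11 CPM in NAM, and 37.8 to 50.5 CPM in TGFβ+SAM against 1.21 to 2.03 CPM in SAM. Pdgfrb, the next of them by p, was at 4.49 CPM or less in every library. Immune markers summed to 16.2 to 24.2 CPM in TGFβ and 33.8 to 35.8 CPM in control libraries, with Cd3e and Adgre1 at 0. The 2 tested, Cd14 (-0.67, -1.32 and -0.79) and Cd68 (-1.04, -1.31 and -1.02), were lower in all 3. The immune markers summed to 10.9 to 17.0 CPM in TGFβ+NAM against 27.3 to 34.6 CPM in NAM, and 23.4 to 24.5 CPM in TGFβ+SAM against 40.2 to 55.2 CPM in SAM. Endothelial markers were at 1.38 CPM or less in every library. The part of these shifts in the results was not tested. Exons of 17 of the 49 genes overlap another gene, 15 on the opposite strand, and their counts are uncertain to that extent.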

How the data were processed

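Per the labels' protocols, total RNA of im-TEC cells was made into QuantSeq 3′ FWD libraries. The submitters' processing notes name STAR, HTSeq and the build GRCh38, without versions, although all gene identifiers are mouse. The deposited values are raw read counts per gene, with no normalization by the authors. Of 55487 gene rows 55141 matched a symbol in the annotation (GRCm38), and 2 of 5 special rows held reads: 22.8% to 28.2% of a library's reads fell in no feature and 0.607% to 0.779% were ambiguous, and both were left out. Library sizes were 4171170 to 7717626 reads in genes.

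Counts of 18 libraries were fitted together in edgeR 4.0.16 (R 4.3.3) with TMM factors, filterByExpr with a minimum count of 10, and the quasi-likelihood F test, with Benjamini-Hochberg adjustment over 13469 genes. All adjusted p-values come from it unless DESeq2 is named. SE is the absolute log2 fold change divided by the square root of F. CPM used TMM factors, and log2 CPM a prior count of 2. The calculation was also run on simulated counts with known changes. Those counts were drawn as independent libraries, so the run cannot speak to shared cultures, the column gap or the conflicting tags. The biological coefficient of variation was 0.139. DESeq2 1.42.0, other scalings, no filter, fits of the compared groups alone, a replicate block and left-out libraries were alternatives.

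The members and lists were chosen with earlier results of these data known. Values by library are given for the 2 members of each role with the smallest p, plus Pcna, Mki67, E2f1 and Foxm1, and up to 3 genes of each other list reported are named by smallest p, with the defining cell type markers besides. Values by library of Mcm7, Ccne1, Gins2 and Cenpf were added because they were called. The motifs were searched in RefSeq promoter windows. One further list of cell type markers is not reported here.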

Additional observations from a re-analysis of the deposited data

Results flagged for a closer look

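Birc5 (survivin) was the member for which the effect of TGFβ differed between the presence and absence of SAM by the test of the difference itself. The interaction was 0.512927 on the log2 scale (SE 0.14, adjusted p = 0.0496 by edgeR's quasi-likelihood test). It had 189, 211 and 202 CPM in TGFβ+SAM and 143, 158 and 128 CPM in SAM libraries, higher in 3 of 3, and 174, 162 and 156 CPM in TGFβ and 173, 162 and 165 CPM in control libraries, which overlapped. With 1 of 49 members called, the share is near the 1.43% of all tested genes called for this interaction. The call ended with the replicate number as a block (0.52, adjusted p = 0.0540) and in 11 of 12 fits that left out 1 library, with adjusted p = 0.0527 to 0.191, and held without SAM replicate 2. Without SAM replicates 2 and 3 the interaction was 0.53 (adjusted p = 0.231).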

How the results depend on the processing

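Of 74 called values of members, all 74 stayed called with DESeq2-type size factors, 67 with library totals, 68 with no filter, 70 in DESeq2, 67 with only the groups compared, 66 with the pair of NAM replicate 3 and TGFβ+NAM replicate 1 removed, and 53 without SAM replicates 2 and 3. None changed sign. The call of Tk1 in TGFβ against control ended with library totals, with no filter, in DESeq2 and with the replicate block (adjusted p = 0.0512 to 0.0746). Left-out libraries kept 355 of 450. Same-numbered libraries did not deviate together (45 pairs, r = -0.100 to 0.070), so the replicate block is only an alternative; with the replicate block 71 values stayed called and 0 mitotic genes had a SAM interaction, against 1 without the block. Counts that moved were as follows. With only the groups compared, 2 mitotic genes were called in TGFβ+NAM against NAM (5 in the joint fit) and 5 in SAM against control (2). Without NAM replicate 3 and TGFβ+NAM replicate 1, 2 mitotic genes were called in TGFβ+NAM against NAM and 1, Birc5, in TGFβ+SAM against TGFβ, the second chosen after seeing the data. DESeq2 also called 1 there. Without SAM replicates 2 and 3, 8 replication genes were called in TGFβ+SAM against SAM (18), 1 replication gene in SAM against control (2), 1 mitotic gene in SAM against control (2), and 0 for the SAM interaction. For these the cause was not tested, beyond fewer libraries. Leaving out 1 library gave 12 to 13 replication and 2 to 4 mitotic genes in TGFβ against control, 11 to 14 and 3 to 5 in TGFβ+NAM against NAM, 13 to 17 and 7 to 10 in TGFβ+SAM against SAM, 1 to 2 and 1 to 2 in SAM against control, 0 to 4 and 0 to 1 in TGFβ+SAM against TGFβ, and 0 to 1 mitotic genes for the SAM interaction. The block also ended the call of Gins2 in TGFβ+SAM against TGFβ (adjusted p = 0.0594). Depth limits the members with few reads most: Gins1, at 0.60 ± 0.33 in TGFβ against control, was not called.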
